A study of Mus musculus with 8 samples.

Results

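The genes described here are those of mouse chromosome 7 with a mean CPM (read counts scaled to library size) of at least 1 over 8 libraries of Ba/F3 cells. The chromosome itself was chosen by its measured levels, which in parental 1 and the transformed libraries lay above those of parental 2 and 3. There were 1088 such genes among the 4702 chromosome 7 genes of the count table. Of the other 3614, 2168 had 0 counts in every library. Of the 1088, 828 were protein coding and 150 were processed pseudogenes, which are copies of spliced messenger RNAs put back into the genome. The genes nearest to the minimum were Snord32a at 1.004, Gm16053 at 1.01 and Cox7a1 at 1.01 mean CPM inside it, and Gm5738 at 0.996, Gm45552 at 0.988 and Gm9278 at 0.985 outside it. The comparison set was the 12883 genes on the other autosomes and X that passed the same minimum.

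Ba/F3 is an immortalised pro-B cell line from C3H mice. Its polyA RNA was sequenced in 3 parental libraries with wild-type U2AF35 (parental 1, 2 and 3) and in 5 libraries of cells transformed with the S34F form of U2AF35 (transformed 4, 5, 6, 7 and 8). U2AF35 pairs with U2AF65 to mark the 3' splice site for the spliceosome. The labels name no promoter for the introduced gene, and they do not tell apart separate cultures, clones and repeat libraries; a p-value here reflects the spread between samples, and that spread may be technical. The genomic profiles mentioned in the design were not analysed here. In bulk RNA, fewer cells of a type and less RNA per cell cannot be told apart.

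Mouse chromosome 7 holds several dense gene families. Near its proximal end lies the cluster of paired immunoglobulin-like receptors (Pirb, Pira2 and relatives), which deliver inhibitory or activating signals in B cells and myeloid cells. Further along lie blocks of Krueppel-type zinc finger genes, many genes of cytosolic ribosomal proteins, a cluster of very large interferon-inducible GTPases around Gvin1, and imprinted domains such as those of Snrpn and of Igf2 and H19. It also carries 4 regulators of NF-kB, the transcription factor family of inflammatory and lymphoid signalling: its subunit Relb and the IkB family members Nfkbib, Nfkbid and Bcl3.

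Genes of 1 family on this chromosome can be nearly the same in sequence. The 250 bases before the RefSeq start (GRCm38.p6) of 3 paired receptor genes are printed to show how alike neighbouring copies are. They lie, all on the minus strand, at chr7:3720383-3720632 (Pirb), chr7:3845052-3845301 (Pira2) and chr7:3915502-3915751 (Lilra6). Capitals mark the longest run that the 3 windows share, 39 bases.

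Pirb: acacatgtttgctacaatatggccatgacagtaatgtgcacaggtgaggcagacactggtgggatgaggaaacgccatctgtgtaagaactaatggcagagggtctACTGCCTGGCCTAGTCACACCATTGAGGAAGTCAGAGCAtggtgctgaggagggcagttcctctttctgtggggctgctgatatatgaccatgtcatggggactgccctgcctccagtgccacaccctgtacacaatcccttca

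Pira2: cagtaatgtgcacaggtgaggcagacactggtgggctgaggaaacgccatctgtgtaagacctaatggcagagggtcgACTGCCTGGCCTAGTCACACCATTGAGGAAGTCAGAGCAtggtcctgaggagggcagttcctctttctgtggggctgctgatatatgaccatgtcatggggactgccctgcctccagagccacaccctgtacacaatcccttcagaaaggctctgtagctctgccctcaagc

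Lilra6: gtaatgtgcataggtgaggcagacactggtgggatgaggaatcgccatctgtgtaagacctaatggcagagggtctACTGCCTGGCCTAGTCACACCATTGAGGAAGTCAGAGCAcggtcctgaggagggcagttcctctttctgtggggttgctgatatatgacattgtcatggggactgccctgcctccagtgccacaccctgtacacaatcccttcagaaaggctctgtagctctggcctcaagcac

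Pirb and Pira2 were identical at 97.7% of 222 aligned bases, Pirb and Lilra6 at 96.4% of 220, and Pira2 and Lilra6 at 96.0% of 248. These bases lie upstream of the start, so the transcripts were compared as well. Of all 50-base words in the GENCODE M21 transcripts of a gene, those of another gene in the stretch from Pirb to Lilra6 also held 29.9% for Pirb, 92.3% for Pira2 and 29.4% for Lilra6. How the deposited counts treated reads that fit several copies is not stated, so the levels of these genes are uncertain to that extent. The RefSeq promoter table had an entry for 745 of the 1088 genes and for 5 of the 7 genes in the stretch from Pirb to Lilra6.

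For the NF-kB regulators the same windows were searched on both strands for GGG, any 5 bases and CC, the general shape of an NF-kB site. Of all 32851 promoter windows 45.8% held it, and of the 2790 on chromosome 7, 45.1% did, so a match is common and is given as a description only. The window before the first Nfkbid start, chr7:30421481-30421730 on the plus strand, held 4 matches (in capitals). The other 2 Nfkbid windows held 2 and 1, the Bcl3 window 3 and the Nfkbib window 0, and Relb had no entry.

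Nfkbid: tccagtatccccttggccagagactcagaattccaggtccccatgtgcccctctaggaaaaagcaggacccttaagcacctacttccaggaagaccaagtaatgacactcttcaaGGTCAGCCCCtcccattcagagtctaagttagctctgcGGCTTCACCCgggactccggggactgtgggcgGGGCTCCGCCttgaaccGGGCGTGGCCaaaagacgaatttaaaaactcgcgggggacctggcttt

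Library totals ran from 36122062 counts (transformed 7) to 50305573 (parental 1). A gene with 0 counts could still have stood at up to 3 counts, which is 0.0596 to 0.0831 CPM by library, for counting error only. By their lane tags, lane 6 held parental 1 and 3 with transformed 5 and 8, and lane 7 the other 4 libraries. Of the pro-B markers, Cd79a (43.2 to 59.6 CPM) and Cd79b (10.8 to 22.0 CPM) were present in every library, while Pax5, Ebf1, Vpreb1, Igll1, Rag1 and Rag2 were at or near 0. Summed markers of T cells and fibroblasts stayed under 0.5 CPM in both groups, and those of red cells reached 2.30 CPM in parental and 7.50 CPM in transformed libraries. The sums of the 5 haematopoietic markers were 3566 to 4747 CPM in parental and 1454 to 3756 CPM in transformed libraries, most of it Csf2rb; their part in the results on chromosome 7 was not tested.

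Chromosome 7 as a whole was read at a slightly higher level in parental 1 and in the transformed cells than in parental 2 and 3. This is the pattern by which the chromosome was picked out, so it is described without a test. For each gene, log2 CPM in a library was set against the mean of parental 2 and parental 3, on the scale of trimmed mean of M values (TMM) factors with a prior count of 2. The median difference over the 1088 genes was 0.12 in parental 1. It was 0.22 in transformed 4, 0.22 in transformed 5, 0.20 in transformed 6, 0.16 in transformed 7 and 0.21 in transformed 8. On this scale and reference each transformed library was thus above parental 1, and parental 1 above the other 2 parental libraries. Those 2 lay at 0.029 and -0.029 and are mirror images by construction. The same median over the genes of the other chromosomes lay between -0.038 and -0.0069 in parental 1 and the transformed libraries. As a fold, the chromosome 7 median corresponds to 1.09 in parental 1 and to between 1.12 and 1.16 in the transformed libraries. The transformed mean was 0.20 (SD 0.023, n = 5) and the parental mean 0.040 (SD 0.075, n = 3). All 6 libraries were set against the same 2, so their values are not independent of one another. The order of transformed 7 and parental 1 turned with the processing. Without scaling factors they lay at 0.107 and 0.132, and each against the parental library of its lane at 0.123 and 0.156.

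Many genes contributed to the difference. Of the 1088 genes, 72.7% lay above 0 in parental 1, against 45.0% of the genes on other chromosomes. In parental 2, part of the reference, 65.1% did, against 51.9% elsewhere. In parental 3, the other part, 34.9% did, against 48.0% elsewhere. In transformed 4, 5, 6, 7 and 8 the share was 76.0%, 74.7%, 72.9%, 59.9% and 69.4%, against 46.9% to 49.2% elsewhere. Transformed 7 had the smallest share of the transformed libraries and also the widest spread, with quartiles of -0.24 and 0.58. Large changes were few: 14 genes (1.29%) were at least 2-fold higher and 5 (0.460%) at least 2-fold lower in parental 1, against 0.706% and 0.512% on other chromosomes. In transformed 4, 5, 6 and 8 between 33 and 39 were higher (3.03% to 3.58%, elsewhere 1.08% to 1.68%) and between 18 and 32 lower (1.65% to 2.94%, elsewhere 2.31% to 3.31%). In transformed 7 the counts were 132 and 45 (12.1% and 4.14%), against 6.32% and 6.56% elsewhere.

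The share of reads is another view of the levels by which the chromosome was chosen, so it is no separate result. Genes of chromosome 7, whatever their level, took 7.21% of all counts in parental 1, 6.55% in parental 2 and 6.27% in parental 3. They took 7.45%, 7.62%, 7.61%, 7.74% and 7.57% in transformed 4 to 8. The 5 transformed shares lay above all 3 parental shares.

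Among the 20 chromosomes compared (the autosomes and X), chromosome 7 had the highest median in parental 1 and in transformed 5, 6, 7 and 8, and the second highest, after chromosome 14 at 0.32, in transformed 4. In parental 1, 18 of the other 19 chromosomes lay between -0.063 and 0.020. The exception was chromosome 16 at -0.27, where the transformed libraries lay between -0.26 and -0.22. Chromosome 8 was next, at -0.063 in parental 1 and between -0.16 and -0.096 in the transformed libraries.

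**Figure D1:**
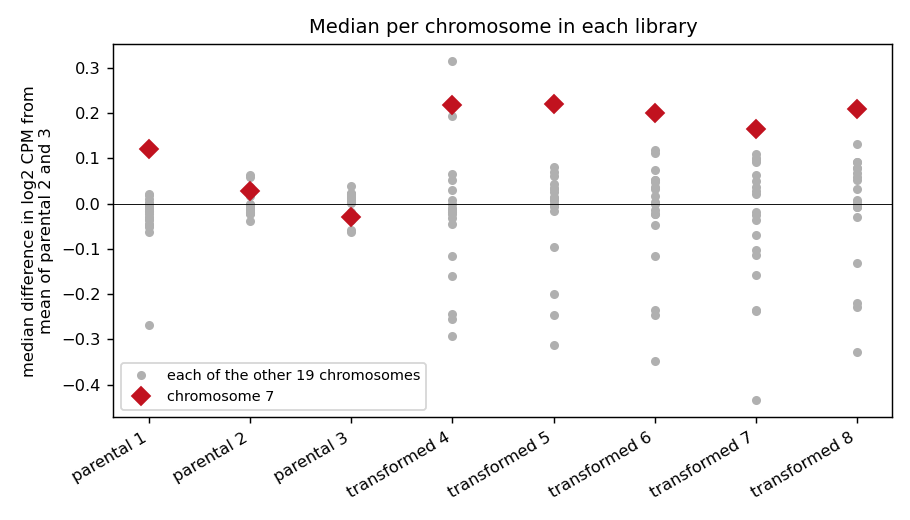
Median difference in log2 CPM from the mean of parental 2 and 3 (vertical axis) for each library (horizontal axis). Each grey point is 1 of the other 19 chromosomes and the red diamond is chromosome 7, which lies at 0.12 in parental 1 and between 0.16 and 0.22 in the transformed libraries.

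The difference ran along the whole chromosome. In 15 consecutive bins of 10 Mb, each with 23 to 132 of the genes, the median of parental 1 was above 0 in all 15 and ranged from 0.036 (50 to 60 Mb) to 0.18 (140 to 150 Mb). Transformed 4, 5, 6 and 8 were above 0 in all 15 bins, with ranges of 0.082 to 0.27, 0.062 to 0.30, 0.090 to 0.33 and 0.087 to 0.39. Transformed 7 was above 0 in 13 bins and ranged from -0.030 (0 to 10 Mb) to 0.45 (110 to 120 Mb). Its other bin under 0, at -0.0076, was 120 to 130 Mb. Within the reference, parental 2 was also above 0 in all 15 bins, from 0.011 to 0.044, and parental 3 in 0. The mean of the 5 transformed medians was lowest at 0 to 10 Mb (0.0999) and highest at 110 to 120 Mb (0.34). When the genes from Pirb to Lilra6 were left out, the bin from 0 to 10 Mb was at 0.037 in transformed 7. Its mean was then 0.138, still the lowest. In 9 of the 15 bins all 5 transformed libraries lay above all 3 parental ones, and parental 1 overlapped the transformed range in the other 6.

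**Figure D2:**
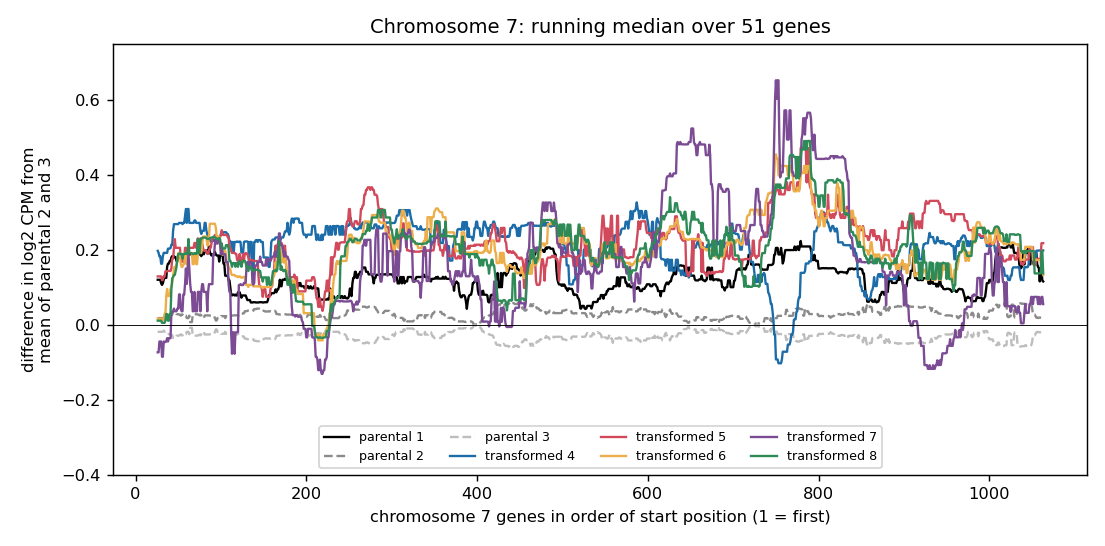
Running median over 51 consecutive genes of the difference in log2 CPM from the mean of parental 2 and 3 (vertical axis), against the rank of the genes by start position (horizontal axis), 1 line per library. Parental 1 stays above 0 throughout while transformed 7 varies most, and transformed 4 dips under 0 at 1 place.

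No single boundary divided the chromosome. A least-squares step with at least 50 genes on each side fell at 45.5 Mb in parental 1 and in transformed 6, 7 and 8, beside Dhdh, Tulp2, Nucb1 and Ppp1r15a. In transformed 5 it fell at 100.8 Mb, between Fam168a and Relt, and in transformed 4 at 101.9 Mb, between Folr1 and Anapc15. The medians on both sides differed little, by 0.020 in parental 1, -0.076 in transformed 4, 0.065 in transformed 5, 0.061 in transformed 6, 0.13 in transformed 7 and 0.069 in transformed 8 (right minus left). With 25 genes a side the step moved to 142.3 Mb in parental 1 and to 4.48 Mb in transformed 4, 5 and 8.

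Protein-coding genes of chromosome 7 lay above those of other chromosomes, and its processed pseudogenes lay near theirs. The 828 protein-coding genes had a median of 0.14 in parental 1 and 0.24, 0.26, 0.22, 0.17 and 0.23 in transformed 4 to 8, against -0.048 to -0.023 for protein-coding genes elsewhere. The 150 processed pseudogenes lay at -0.015 in parental 1 and at 0.046, 0.094, 0.037, -0.0019 and 0.18 in transformed 4 to 8. Processed pseudogenes of other chromosomes, 2230 in number, lay at -0.00074, 0.048, 0.082, 0.029, -0.0095 and 0.14 in the same libraries, so those on chromosome 7 were within 0.04 of them. A processed pseudogene often resembles a parent gene on another chromosome, and reads of the pair can be hard to tell apart. Genes on the plus strand (505) and on the minus strand (583) had medians of 0.12 and 0.13 in parental 1.

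**Figure D3:**
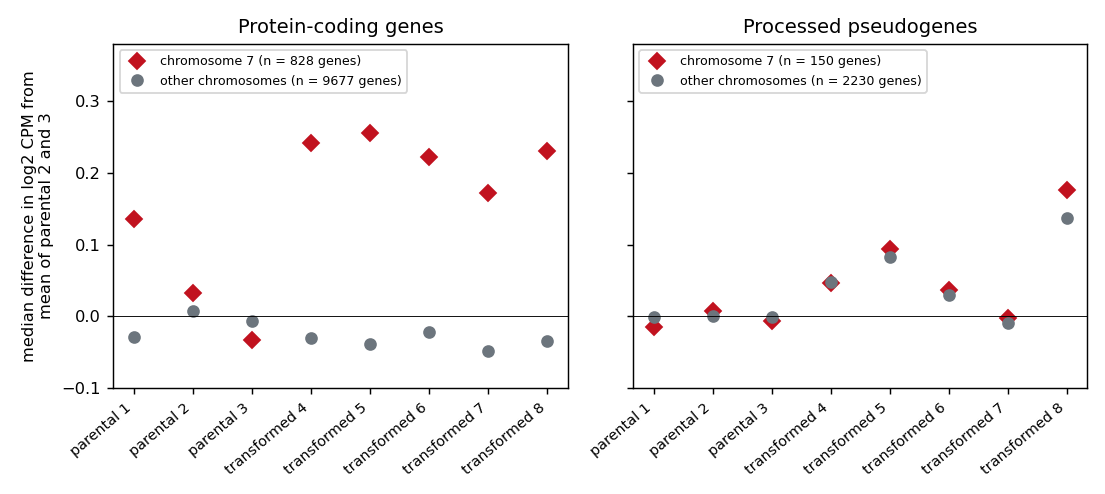
Median difference in log2 CPM from the mean of parental 2 and 3 (vertical axis) by library (horizontal axis), for protein-coding genes (left) and processed pseudogenes (right), with chromosome 7 in red and the other chromosomes in grey. Protein-coding genes of chromosome 7 reach 0.14 in parental 1 and 0.17 to 0.26 in the transformed libraries, while its pseudogenes follow those of the other chromosomes.

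Base composition moved with the values in transformed 6, 7 and 8. Chromosome 7 genes had a median transcript GC content of 51.5%, against 49.0% elsewhere. Genes were divided into 3 classes of GC content. In transformed 7 the low-GC class lay at 0.42 on chromosome 7 and 0.12 elsewhere, and the high-GC class at 0.0097 and -0.23. In transformed 6 the low-GC and high-GC classes lay at 0.31 and 0.15 on chromosome 7 and at 0.046 and -0.094 elsewhere. In transformed 8 they lay at 0.26 and 0.17 on chromosome 7 and at 0.045 and -0.10 elsewhere. In transformed 4 the high-GC class was the higher one on chromosome 7, at 0.25 against 0.19. The part of base composition in the result was not tested beyond removing its trend. After a trend on GC was removed the medians of chromosome 7 were 0.12 in parental 1 and 0.19, 0.21, 0.21, 0.21 and 0.23 in transformed 4 to 8, and every bin of all 6 libraries was above 0. By level, the class of genes highest in mean CPM lay at 0.23 to 0.29 in the transformed libraries and the lowest class at 0.073 to 0.17. On other chromosomes the same classes lay at -0.021 to 0.044 and at -0.057 to -0.0066. In transformed 4 alone the highest class elsewhere was the lower one, at -0.015 against -0.0066.

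Gene by gene, edgeR called 34 of the 1088 genes higher and 12 lower in transformed than in parental cells, at an adjusted p under 0.05 over the 17733 genes tested. The rule that chose the chromosome used this contrast, so the counts stand as description beside the background of 0.908% of tested genes called higher and 2.1% called lower. For chromosome 7 the shares were 3.13% and 1.10%. The median log2 fold change was 0.17 over the 1088 genes and 0.017 over all tested genes, and 785 of the 1088 (72.2%) were above 0, against 52.3%. All 5 transformed libraries lay above all 3 parental ones for 224 genes (20.6%, background 8.06%) and below them for 42 (3.86%, background 9.69%). The counts of calls turned on single libraries. Leaving out parental 1 left 2 higher and 1 lower. Leaving out parental 2, parental 3, transformed 5, 6 or 8 left 0 higher and 0 to 2 lower. In these fits the shares over all tested genes fell too, to between 0.0166% and 0.0907% higher and between 0.116% and 0.397% lower. Without transformed 4 the calls were 173 and 49 (15.9% and 4.50%, where all tested genes gave 6.25% and 9.26%). Without transformed 7 they were 120 and 18 (11.03% and 1.65%, where all tested genes gave 2.87% and 4.76%). With lane as a covariate 0 remained higher, and the 2 lower were Tnfrsf22 and E230032D23Rik (0% and 0.184%, where all tested genes gave 0.0846% and 0.445%). The 18 called genes that the naming rule picked then had edgeR adjusted p-values from 0.0532 to 0.0997, so the rises and falls described next do not pass the test in that fit.

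Against parental 2 and 3 alone, all 5 transformed libraries were higher for 352 of the 1088 genes (32.4%, background 11.8%) and lower for 58 (5.33%, background 14%). Parental 1 was above both for 653 (60.02%, background 34.5%) and below both for 185 (17.0%, background 37.7%). Parental 1 and all 5 transformed libraries together were above both for 267 (24.5%, background 6.92%) and below both for 27 (2.48%, background 8.61%).

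Under the rule for naming genes, the called genes with the largest increases were Pvr, Rab38, Nfkbib, Myo7a and Arntl. Pvr (ENSMUSG00000040511, 19903578 to 19921160), an adhesion receptor of the nectin-like family, was at 10.3, 6.39 and 6.27 CPM in parental 1, 2 and 3 and at 14.3, 16.9, 21.1, 38.3 and 23.8 CPM in transformed 4 to 8. The groups did not overlap, which the naming rule requires, and the log2 fold change was 1.58 (SE 0.34, edgeR adjusted p = 0.0456). Rab38, a small GTPase of lysosome-related organelles, was at 3.22, 6.71 and 3.73 CPM in parental and at 13.8, 12.7, 16.3, 7.57 and 12.6 CPM in transformed libraries. Parental 1 was here the lowest library, unlike the chromosome as a whole, and the log2 fold change was 1.47 (SE 0.30, edgeR adjusted p = 0.0411). Myo7a (ENSMUSG00000030761, 98051060 to 98119524), which encodes an unconventional myosin, was at 57.1, 44.0 and 38.7 CPM in parental and at 107, 90.6, 78.3, 102 and 81.1 CPM in transformed libraries. It rose by 0.98 on the log2 scale (SE 0.16, edgeR adjusted p = 0.0245), with parental 1 between the other parental libraries and the transformed ones. Arntl, a core transcription factor of the circadian clock also called BMAL1, was at 15.5, 13.1 and 13.2 CPM in parental and at 32.2, 22.3, 20.04, 27.8 and 23.4 CPM in transformed libraries (log2 fold change 0.85, SE 0.17, edgeR adjusted p = 0.0357).

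Another 5 called genes rose by 0.61 to 0.82 on the log2 scale. Mphosph10, a component of the U3 ribonucleoprotein of ribosome assembly, rose by 0.67 (SE 0.14) on the log2 scale, from 61.2 ± 7.30 (SD, n = 3) to 97.6 ± 13.2 CPM (SD, n = 5). Rrp8, a nucleolar methyltransferase, rose by 0.61 (SE 0.10), from 43.0 ± 4.52 to 65.8 ± 5.27 CPM. Sgf29, a subunit of the SAGA chromatin complex, rose by 0.82 (SE 0.16), from 20.1 ± 1.85 to 35.6 ± 6.25 CPM. Ppp5c, a serine/threonine phosphatase, rose by 0.72 (SE 0.15) from 63.5 ± 6.86 to 105 ± 17.4 CPM, and Nomo1, a protein of the endoplasmic reticulum membrane, by 0.72 (SE 0.13) from 116 ± 19.2 to 191 ± 21.7 CPM. The edgeR adjusted p of these 5 genes lay between 0.0273 and 0.0419. In none of them was parental 1 above both other parental libraries, and parental 2 was the highest parental library in all 5.

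The 5 genes that fell most under the naming rule included 3 of leukocyte signalling. Pirb, an inhibitory receptor, was at 23.3, 23.6 and 23.3 CPM in parental libraries and at 2.62, 9.03, 8.95, 8.54 and 7.34 CPM in transformed 4 to 8, so transformed 4 was far below the rest. It fell by 1.68 on the log2 scale (SE 0.33, edgeR adjusted p = 0.0368). Fes, a cytoplasmic tyrosine kinase of myeloid cells, was at 173, 170 and 194 CPM in parental and at 129, 98.6, 109, 127 and 89.0 CPM in transformed libraries, a fall of 0.70 (SE 0.13, edgeR adjusted p = 0.0333). Axl, a receptor tyrosine kinase, was at 21.7, 15.8 and 20.5 CPM in parental and at 12.2, 12.6, 7.96, 11.7 and 10.3 CPM in transformed libraries, a fall of 0.82 (SE 0.17, edgeR adjusted p = 0.0411). In each of the 3 genes the groups did not overlap, which the naming rule requires. Eef2k, the kinase that restrains translation elongation, fell by 0.53 (SE 0.11) from 135 ± 10.2 to 93.7 ± 11.4 CPM, and E2f8, a repressive E2F factor of the cell cycle, by 0.38 (SE 0.082) from 140 ± 8.11 to 108 ± 6.71 CPM (edgeR adjusted p = 0.0416 and 0.0469).

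**Figure D4:**
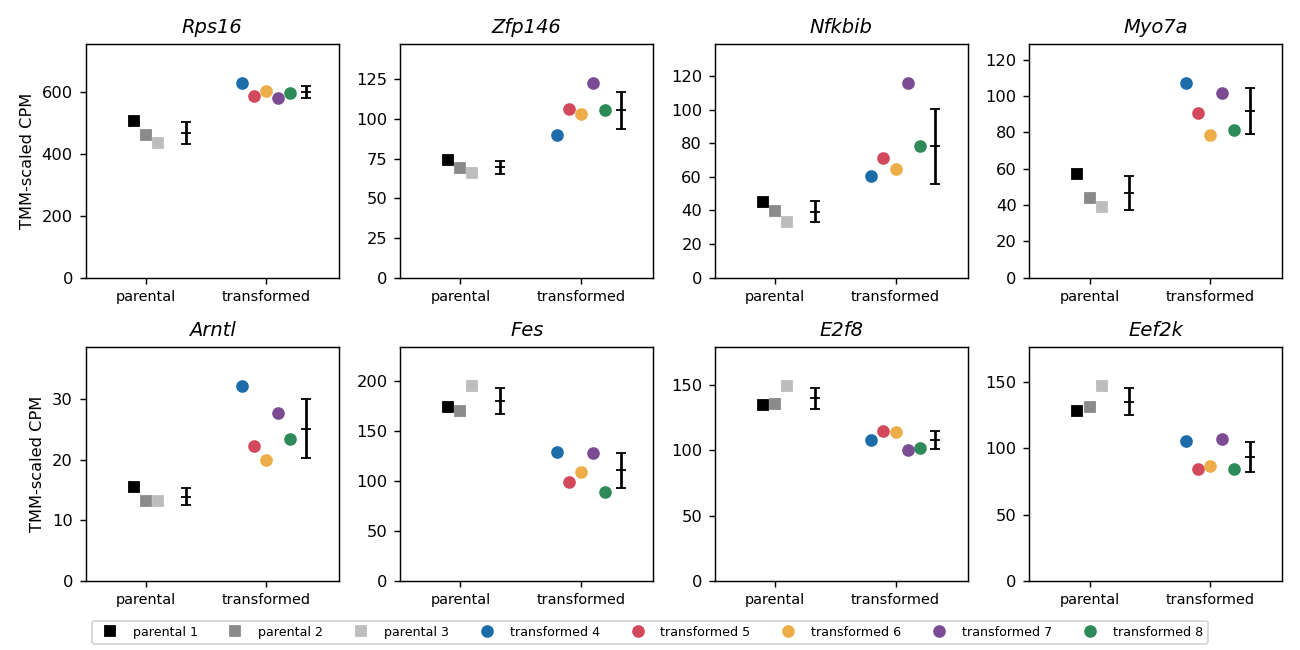
TMM-scaled CPM (vertical axis, from 0) of 8 chromosome 7 genes in each library, parental libraries as squares and transformed libraries as circles, and bars for the group mean and SD (n = 3 and n = 5). In all 8 genes the groups do not overlap, and in Rps16, Zfp146, Nfkbib, Myo7a and Arntl parental 1 is the highest parental library. For Myo7a, Arntl, Fes and Eef2k the naming rule requires that the groups do not overlap.

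Of the NF-kB regulators, Nfkbib rose and 2 others stood higher without passing the test. Nfkbib (ENSMUSG00000030595, 28758251 to 28767512), which encodes IkB-beta, an inhibitor that holds NF-kB in the cytoplasm, was at 45.1, 39.9 and 32.96 CPM in parental and at 60.5, 71.2, 64.8, 116 and 78.6 CPM in transformed libraries. All 5 transformed libraries were above all 3 parental ones, transformed 7 most, and the log2 fold change was 0.99 (SE 0.22, edgeR adjusted p = 0.0484). Relb, a subunit of the noncanonical pathway, was at 36.3, 22.6 and 16.7 CPM in parental and at 45.9, 38.8, 44.9, 50.2 and 39.9 CPM in transformed libraries. Its groups did not overlap either, but it did not pass the test (log2 difference 0.80 with SE 0.23, adjusted p = 0.0854 in edgeR), and parental 1 stood nearer to the transformed libraries than to the other parental ones. Nfkbid, a nuclear IkB protein, was at 20.8, 19.7 and 16.4 CPM in parental and at 30.6, 24.2, 24.9, 16.6 and 22.3 CPM in transformed libraries, with a log2 fold change of 0.32 (SE 0.18, edgeR adjusted p = 0.334). Bcl3 was at a mean of 0.0190 CPM and is not among the 1088. Nfkbib overlaps Ccer2 and Sirt2 in the annotation, so reads of these genes may not be fully separated.

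Genes of the splicing machinery, in which U2AF35 works, did not pass the test on this chromosome. Of 10 such genes 0 were called in either direction in edgeR, 9 had a positive log2 fold change and the median was 0.20, close to the 0.17 of all 1088. Over all tested genes 0.908% were called higher and 2.1% lower, so 0 of 10 does not set these genes apart. U2af2, which encodes the large U2AF subunit, was at 280, 311 and 284 CPM in parental and at 271, 369, 331, 290 and 340 CPM in transformed libraries (log2 fold change 0.13, SE 0.11, edgeR adjusted p = 0.525). The groups overlapped, with transformed 4 the lowest of all 8 libraries. Snrnp70, a protein of the U1 particle, was at 523, 477 and 451 CPM in parental and at 614, 680, 693, 939 and 613 CPM in transformed libraries, where transformed 7 was the highest (log2 fold change 0.55, SE 0.15, edgeR adjusted p = 0.0775). U2af1l4, a relative of U2AF35, was at a mean of 0.841 CPM, under the minimum.

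Genes of cytosolic ribosomal proteins all leaned the same way. All 14 had a positive log2 fold change, the lowest 0.10 (Rps9), with a median of 0.31, and in parental 1 all 14 were above 0, with a median of 0.16. In edgeR 2 of the 14 were called higher and 0 lower, where all tested genes gave 0.908% and 2.1%. Rps16 was at 504, 460 and 434 CPM in parental and at 628, 585, 601, 578 and 597 CPM in transformed libraries (log2 fold change 0.36, SE 0.080, edgeR adjusted p = 0.0484). Parental 1 was the highest of the parental libraries for Rps16 and still below every transformed one. Ribosomal protein genes have many processed pseudogenes, with which reads can be shared.

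Genes of mitochondria, zinc fingers, transcription and DNA repair were mostly above 0, as were 72.2% of all 1088 genes, and few were called. With 0.908% of all tested genes called higher and 2.1% lower, 0 calls in a short list say little. Of 21 genes of mitochondrial energy metabolism 0 were called, and 20 had a positive log2 fold change (median 0.29); Uqcrc2, a subunit of respiratory complex III, went from 171 ± 20.6 to 227 ± 9.23 CPM (log2 difference 0.41 with SE 0.094, adjusted p = 0.0526 in edgeR). Of 79 zinc finger genes, 62 were positive (median 0.18), with 4 called higher (Zfp109, Zfp850, Zfp566 and Zfp146) and 0 lower. Zfp146 was at 73.9, 68.8 and 65.8 CPM in parental and at 90.0, 106, 103, 123 and 106 CPM in transformed libraries (edgeR adjusted p = 0.0290). Of 16 genes listed as transcription factors, 12 were positive (median 0.32), with Arntl called higher and E2f8 lower. This list also holds Zfp36, which encodes an RNA-binding protein. Of 13 genes of DNA repair and replication, 10 were positive (median 0.11) and 0 were called.

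Some of the most abundant genes of the chromosome stayed level or varied by library. Of 3 glycolytic enzymes, Aldoa (aldolase) was at 2008, 1597 and 1457 CPM in parental and at 1598, 1586, 1794, 1360 and 1975 CPM in transformed libraries, so its groups overlapped (edgeR adjusted p = 0.949). Gpi1 averaged 719 ± 81.7 CPM in the parental group (SD, n = 3) and 721 ± 116 CPM in the transformed group (SD, n = 5), and Ldha 1326 ± 161 and 1598 ± 362 CPM. In all 3 enzymes transformed 7 was the lowest transformed library, and Gpi1 and Aldoa were highest in parental 1 among the parental libraries. Eif4g2, a translation factor, was at 973, 1028 and 957 CPM in parental and at 1037, 1435, 1373, 2296 and 1577 CPM in transformed libraries. Its groups did not overlap but transformed 4 lay just above the parental range (log2 difference 0.65 with SE 0.22, adjusted p = 0.131 in edgeR). Ube3a, a ubiquitin ligase gene that is imprinted in neurons, was at 79.2, 74.0 and 73.3 CPM in parental and at 82.2, 92.3, 102, 112 and 106 CPM in transformed libraries, again without overlap (log2 difference 0.39 with SE 0.11, adjusted p = 0.0860 in edgeR).

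Cell division genes and imprinted genes had medians just under 0. Counts of calls in these lists stand beside 0.908% higher and 2.1% lower over all tested genes. Of 7 genes of cell division 3 were positive, the median was -0.038 and 0 were called; Mki67, the proliferation marker, averaged 965 ± 81.6 CPM in the parental group (SD, n = 3) and 940 ± 142 CPM in the transformed group (SD, n = 5). Plk1, a mitotic kinase, was at 120, 137 and 122 CPM in parental and at 132, 139, 109, 61.0 and 121 CPM in transformed libraries, with transformed 7 the lowest (edgeR adjusted p = 0.722). Of 31 imprinted genes 17 were under the minimum, among them Peg3, Snrpn, Igf2, H19 and Cdkn1c, and of the 14 above it 5 were positive (median -0.042). Of these 14 only Tnfrsf22 was called, lower. Set against parental 2 and 3, the 14 imprinted genes had a median of 0.15 in parental 1, where 12 were above 0, and of 0.14, 0.093, 0.048, 0.046 and -0.012 in transformed 4 to 8. On the same reference the cell division genes lay at -0.012 in parental 1 and at 0.20, 0.16, -0.0057, -0.26 and 0.030 in transformed 4 to 8. Without transformed 7 the median log2 fold change of both lists turned positive, at 0.060 for the imprinted and 0.025 for the cell division genes. That of the cell division genes was also positive without parental 1 (0.020) and in lane 6 alone (0.070). That of the imprinted genes was also positive without transformed 4 and 7 (0.078). Of 6 cell death genes 4 were positive (median 0.31) and 0 were called. In them parental 1 had a median of 0.39, led by Nupr1 and Bbc3. Of 34 genes of leukocyte receptors and signalling 21 were positive (median 0.14), with Pvr and Rras2 called higher and Pirb, Axl and Fes lower.

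Among the signalling genes that did not pass the test, some separated the groups in every library. Tgfb1, an immunosuppressive cytokine, was at 220, 236 and 193 CPM in parental and at 319, 288, 278, 402 and 280 CPM in transformed libraries (log2 difference 0.53 with SE 0.14, adjusted p = 0.0730 in edgeR). Pou2f2, the B-cell transcription factor OCT2, was at 70.7, 61.3 and 66.1 CPM in parental and at 163, 84.2, 95.05, 166 and 90.1 CPM in transformed libraries, highest in transformed 4 and 7 (log2 difference 0.86 with SE 0.26, adjusted p = 0.101 in edgeR). Siglecf, a sialic acid-binding receptor of eosinophils, was at 66.6, 53.9 and 53.3 CPM in parental and at 46.9, 28.5, 24.2, 10.05 and 25.6 CPM in transformed libraries, lowest in transformed 7 (log2 difference -1.10 with SE 0.38, adjusted p = 0.140 in edgeR). In none of these 3 did the groups overlap.

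At 2 places neighbouring genes of 1 family moved together and far from the chromosome's median; they were chosen after their values were seen. The first is the paired receptor stretch from Pirb to Lilra6 (3711409 to 3915503), whose promoter windows are printed above. All 7 genes in it were below all 3 parental libraries in all 5 transformed libraries. Over all tested genes 9.69% lay below in this way. The stretch's median was -3.14 in transformed 4 and -1.08, -0.95, -0.91 and -1.37 in transformed 5 to 8, on the log2 scale. In parental 1 it was 0.085. Lilra6 was at 10.004, 8.37 and 8.24 CPM in parental libraries and at 0.505, 3.91, 4.31, 4.94 and 2.96 CPM in transformed 4 to 8. Only Pirb passed the test, and the largest edgeR adjusted p of the 7 was 0.162.

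The second is the stretch of very large interferon-inducible GTPases from 9130208D14Rik to Gm1966 (105824223 to 106604035), with 11 genes and pseudogenes. Here transformed 4 and the other transformed libraries moved apart. Gvin1 was at 10.04, 7.57 and 7.80 CPM in parental libraries, at 0.666 CPM in transformed 4 and at 35.7, 64.6, 110 and 48.1 CPM in transformed 5 to 8. The median of the stretch was -3.30 in transformed 4, 1.18, 1.56, 1.85 and 1.32 in transformed 5 to 8, and 0.54 in parental 1. Transformed 5 to 8 were above all parental libraries in all 11, and transformed 4 was the lowest library in 10; the exception was Gm8982, at 1.13 CPM in transformed 4. With 1 transformed library against the other 4, no gene of the stretch passed the test, and the smallest edgeR adjusted p was 0.143. Other genes of the stretch held a median of 78.6% of the 50-base words of each gene's transcripts, from 0% for Gm8982 to 99.2% for Gvin1. The share was 2.51% for Gm4759, 17.5% for Gm1966, 18.6% for Gm8995 and 32.2% for 9130208D14Rik. How shared reads were counted is not stated, so the values of the more alike copies may not be independent measurements.

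The bin that holds this stretch was the lowest of transformed 4. In the bin from 100 to 110 Mb the median of transformed 4 was 0.082 with the stretch and 0.14 without it, while parental 1 went from 0.16 to 0.15 and transformed 7 from 0.35 to 0.23. Without the stretch this bin was still the lowest of transformed 4. In 5 Mb bins transformed 4 was at 0.13 from 100 to 105 Mb, before the stretch, and at -0.048 from 105 to 110 Mb. The step of transformed 4 at 101.9 Mb moved to 139.7 Mb when both stretches were left out.

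**Figure D5:**
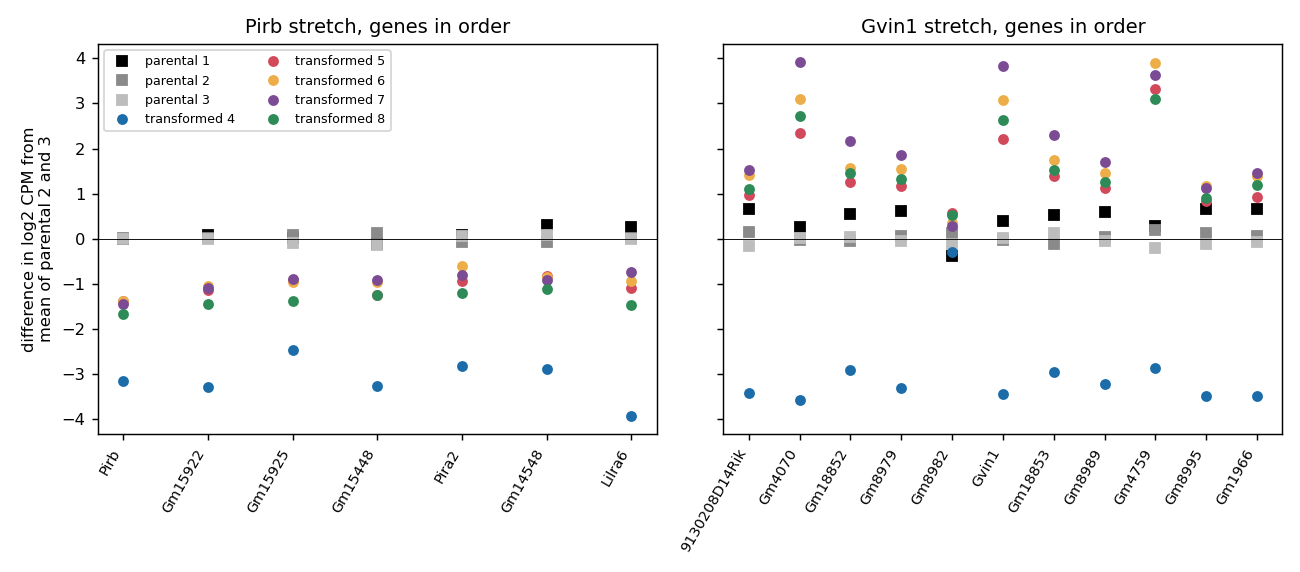
Difference in log2 CPM from the mean of parental 2 and 3 (vertical axis) for the genes of the Pirb stretch (left) and of the Gvin1 stretch (right), in order along the chromosome, 1 symbol per library. Transformed 4 (blue circles) lies near -3 in both, whereas transformed 5 to 8 lie near -1 in the Pirb stretch and above 0 in the Gvin1 stretch.

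Interferon-responsive membrane genes at the distal end also set transformed 4 apart. Ifitm3, which restricts virus entry, was at 297, 148 and 105 CPM in parental and at 146, 355, 368, 361 and 367 CPM in transformed libraries. Parental 1 lay with transformed 5 to 8, and transformed 4 with parental 2 (log2 fold change 0.80, SE 0.40, edgeR adjusted p = 0.276). Ifitm1 was at 1127, 697 and 541 CPM in parental and at 283, 927, 972, 973 and 1040 CPM in transformed libraries, so transformed 4 was the lowest of all 8. Irf7, a factor of the interferon response named after its values were seen, was at 8.56, 4.35 and 5.26 CPM in parental and at 8.02, 7.22, 16.4, 15.0 and 8.05 CPM in transformed libraries, where transformed 4 was not low.

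Another pair of neighbours fell in all transformed libraries. Tnfrsf22, a decoy receptor gene of the TNF receptor family (143634806 to 143649661), was at 2.74, 2.10 and 2.498 CPM in parental and at 1.11, 1.17, 0.924, 1.06 and 0.972 CPM in transformed libraries, a fall of 1.22 (SE 0.16, edgeR adjusted p = 0.0105). The antisense gene E230032D23Rik, which overlaps it, fell by 1.21 (SE 0.14, edgeR adjusted p = 0.00758), from 4.61, 4.37 and 4.82 CPM to 1.70, 2.08, 2.33, 1.88 and 1.97 CPM. How the counting treated strand is not given, so reads of this overlapping pair cannot be told apart. The neighbours Tnfrsf26 and Tnfrsf23 were lowest in transformed 4, at 11.4 and 0.686 CPM, and did not pass the test.

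Single libraries also held genes of their own, again chosen after their values were seen. Ttll13, a tubulin-modifying enzyme of the tubulin tyrosine ligase-like family, was at 54.9 CPM in transformed 4 and between 0.110 and 0.371 CPM in the other 7 libraries. Dhdh, a dihydrodiol dehydrogenase, was at 11.9 CPM in transformed 4 and at 0.986 CPM or less elsewhere. In transformed 7, Atf5, Ppp1r15a and Nupr1 were highest: Atf5 was at 218 CPM against 11.1 to 27.2 CPM in the other 7 libraries, Ppp1r15a at 664 against 74.2 to 164 CPM, and Nupr1 at 148 against 3.38 to 18.1 CPM. Fgf21, which encodes a stress hormone, was at 26.7 CPM in transformed 7, at 8.88 CPM in transformed 8, at 0.323 to 1.94 CPM in transformed 4, 5 and 6 and under 0.08 CPM in parental libraries (edgeR adjusted p = 0.0746).

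Parental 1 differed from parental 2 and 3 in few genes beyond the shared shift. Of its 14 genes at least 2-fold higher, Nupr1 was at 13.4 against 3.38 and 4.73 CPM, Bbc3, which encodes the death protein PUMA, at 43.8 against 21.0 and 20.3 CPM, and Cars, a cysteine tRNA synthetase, at 188 against 82.3 and 84.7 CPM. In transformed 4 to 8 Cars was at 154, 126, 188, 230 and 147 CPM, all above parental 2 and 3. Among its 5 genes at least 2-fold lower were Zfp36, an RNA-binding protein that shortens the life of cytokine messages, at 17.4 against 62.1 and 74.0 CPM, and Muc6, a mucin, at 7.19 against 28.9 and 13.8 CPM. In transformed 4 to 8 Zfp36 was at 12.7, 21.0, 23.3, 27.4 and 34.6 CPM, around the level of parental 1 (log2 fold change -1.11, SE 0.44, edgeR adjusted p = 0.191). Muc6 was at 7.49, 2.40, 1.78, 0.999 and 1.69 CPM (log2 difference -2.52 with SE 0.66, adjusted p = 0.0763 in edgeR).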

How the data were processed

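PolyA RNA was sequenced in 3 parental and 5 transformed libraries. The authors deposited unscaled read counts for 53465 Ensembl genes. Alignment with STAR 2.5.3a, counting with featureCounts 1.5.3 and the genome builds GRCm38.p5 and mm10 are named in the submitters' processing notes. The sources used here do not give the authors' annotation release or how strand and multiply mapped reads were handled. Positions (GRCm38), symbols and GC content of transcripts were taken from GENCODE, where 105 genes had no match.

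CPM values are TMM-scaled, and log2 differences are from the mean of parental 2 and 3 with a prior count of 2. Groups were compared with edgeR 4.0.16 under R 4.3.3 (genes kept by filterByExpr, TMM, a 2-sided robust quasi-likelihood test, p-values adjusted by Benjamini-Hochberg over 17733 genes, threshold 0.05), which was tested on simulated data. All 1088 genes passed the low-count filter. Alternatives included DESeq2 1.42.0, other scaling, filters and references, lane, GC content and leaving out libraries; the removal of a GC trend from bins, lane 7 alone and the fits without transformed 4 and 7 or without the Gvin1 and Pirb stretches were added after seeing the data. Named genes were up to 10 per direction with the largest log2 fold change among called genes (average log2 CPM of at least 3, groups not overlapping, no predicted-gene name), the 4 highest members of each list, the highest protein-coding gene of each bin, the NF-kB genes and the genes beside each step; others were chosen after their values were seen. The members and lists were chosen with earlier results of these data known. Sequences are from RefSeq (GRCm38.p6). Some genes are not reported here.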

Additional observations from a re-analysis of the deposited data

Results flagged for a closer look

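Among 90 sets of 5 transformed values (bins and named genes), 24 had 1 library far from the other 4. The cutoff is set for about 1 in 20 sets of independent values. These sets share the same 5 libraries and include genes named for lying beside a step, so 24 cannot be judged against that rate. The outlying library was transformed 7 in 14 of the 24, transformed 4 in 9 and transformed 5 in 1. In the bins, transformed 5 was low at 50 to 60 Mb (0.062 on the log2 scale), and transformed 7 was low at 60 to 70 Mb (0.1425) and at 140 to 150 Mb (0.01833).

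Transformed 4 was low in Pirb (2.625 CPM), Ifitm1 (282.6 CPM, against 927 to 1040 in the other transformed libraries) and Ifitm3 (145.9 CPM, against 355 to 368). It was high in Dhdh (11.93 CPM) and the overlapping Tulp2 (31.92 CPM), in Rpl18 (903.6 CPM), in Akap13, a kinase anchor (317.7 CPM), in Blm, a helicase of DNA repair (209.4 CPM), and in the folate receptor gene Folr1 (10.18 CPM).

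Transformed 7 was low in the splicing factor Hnrnpl (323.9 CPM), the mitochondrial enzyme gene Idh2 (110.2 CPM), the ribonucleotide reductase gene Rrm1 (398.2 CPM) and Dhcr7, of cholesterol synthesis (30.97 CPM, against 95.3 to 114). It was high in Zfp568 (105.3 CPM), Cebpg (207.9 CPM), Snrnp70 (939.5 CPM), Ppp1r15a (663.5 CPM, against 74.2 to 164), Cyfip1 (196.7 CPM), Mef2a (176.7 CPM), Nupr1 (148.3 CPM, against 5.55 to 18.1) and Coro1a (488.9 CPM).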

How the results depend on the processing

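The median of chromosome 7 was positive in parental 1 and the 5 transformed libraries under every setting tried. The values of transformed libraries that moved by more than 1 SD of that group follow. With all 3 parental libraries as reference they were 0.179, 0.171, 0.162, 0.127 and 0.164 in transformed 4 to 8. Leaving out parental 2 or 3 gave 0.172 to 0.242 in transformed 4, 0.176 to 0.225 in transformed 6, 0.123 to 0.183 in transformed 7 and 0.174 to 0.227 in transformed 8. Against the parental library of the same lane, transformed 4, 6 and 7 were at 0.172, 0.176 and 0.123. With the GC trend removed transformed 4, 7 and 8 were at 0.193, 0.210 and 0.234. Without scaling factors transformed 7 and 8 were at 0.107 and 0.171, without a CPM minimum at 0.141 and 0.177. At a minimum of 10 CPM transformed 5 and 8 were at 0.246 and 0.239, and the trimmed mean of transformed 8 was 0.179. Parental 1 moved with the reference as well. It was at 0.080 with all 3 parental libraries as reference, at 0.095 without parental 3 and at 0.156 without parental 2. Against the parental library of its lane it was at 0.156, and without scaling factors at 0.132, in both cases above transformed 7.

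The range of bin medians was 0.336, 0.365, 0.603 and 0.453 in transformed 4, 6, 7 and 8 with 5 Mb bins, and 0.304 in transformed 7 with the GC trend removed. The step moved to 142.306 Mb in parental 1 and to 4.48152 Mb in transformed 4, 5 and 8 with 25 genes a side, and to 139.719 and 43.5796 Mb in transformed 4 and 5 without the Gvin1 and Pirb stretches.

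Calls were 168 higher and 26 lower in DESeq2 (15.6% and 2.41%, against 4.38% and 5.53% over all tested genes). With lane as a covariate they were 0 and 2 (0% and 0.184%, against 0.0846% and 0.445%). In lane 7 alone, with 1 parental library, the median log2 fold change was 0.162. Calls were 212 and 55 in lane 6 alone (19.5% and 5.06%, against 9.60% and 10.8%). They were 321 and 76 without transformed 4 and 7 (29.5% and 6.99%, against 12.8% and 16.1%). With each library left out they ran from 0 to 173 higher and from 0 to 49 lower. The median log2 fold change stayed between 0.150 and 0.217. All 46 called genes, the 18 chosen by the naming rule among them, lost the call in at least 1 of 16 settings, and 25 of the other 56 named genes gained one; Tnfrsf22 passed in 13 settings and E230032D23Rik in 14. Of these 74 genes 23 changed sign in some setting, 0 of them among the 18. Dhcr7 alone then passed the threshold, turning from -0.026 to 0.360 in lane 6 alone and to 0.235 without transformed 4 and 7; transformed 7 had its lowest level. Causes were not tested. No paired analysis was possible because the groups share no replicate numbers.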
